A study of Rattus norvegicus with 24 samples.

Results

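Whether a grandfather's diet alters how his granddaughters' livers respond to a fatty diet was examined as an interaction between the grandpaternal diet and the animal's own diet. All 24 arrays of the series entered, 1 liver from 1 adult female Sprague-Dawley rat each, and the groups were taken from the prefix of the sample title. GpatCD-CD held 7 females with a chow-fed grandfather that ate chow themselves, and GpatCD-HF held 6 females of the same descent on a high-fat diet (HFD). GpatHF-CD held 6 females with an HFD-fed grandfather that ate chow, and GpatHF-HF held 5 such females on the HFD. The females are the F2 generation of the fed F0 founders, and their own diet lasted 12 weeks, with 42 or 45% of the energy of the HFD coming from fat as the labels write it. The first pair of groups is called the chow line and the second pair the HFD line. The interaction is the own-diet difference (HFD minus chow) in the HFD line minus the same difference in the chow line, on the log2 scale. A positive value means that a gene was moved further up, or less far down, by the HFD in the HFD line.

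The labels do not say which females shared a litter or a grandfather, so every array was taken as 1 animal unrelated to the rest, and p-values would be too small if some were sisters or cousins. They do not give the diet of the parents (F1). Titles, source and tissue fields name liver, but the growth text speaks of gonadal fat. The signal was that of liver: Alb, Ttr and Tf, which encode secreted hepatocyte proteins, lay at or above the 99.9th percentile of the probe sets on every array. Adipoq and Lep, which mark fat cells, lay between the 18.7th and the 43.0th. For 2 further fat cell genes the percentiles ran from 32.1 to 46.9 (Plin1) and from 44.2 to 54.8 (Cfd).

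The liver keeps its cholesterol supply steady by adjusting synthesis. When sterols are plentiful, the transcription factor SREBP-2 is held in the endoplasmic reticulum and the genes of the mevalonate pathway are transcribed less. Fatty acids that reach the hepatocyte activate PPAR alpha, a nuclear receptor that drives genes of mitochondrial and peroxisomal fatty acid oxidation. Both responses are well known in rodents, the first to sterols and the second to fatty acids. An inherited effect of a grandfather's diet on either response would appear here as a response of another size in the HFD line. A grandpaternal effect of equal size on both own diets cancels in the interaction, and one confined to the chow-fed females enters it too.

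No probe set passed the test for the interaction. At an adjusted p under 0.05 (limma, Benjamini-Hochberg over all 20917 probe sets), 0 probe sets were called (0%), after quantile normalization and on the values as deposited alike. In the same fit, own diet averaged over the lines gave 363 calls (1.74%), of which 140 rose and 223 fell. The smallest adjusted p for the interaction was 0.146, for Arpc1b. At an unadjusted p under 0.05 there were 1403 probe sets (6.71%, where a fit with no interaction would place 5%). Of these, 696 had a positive interaction, termed higher from here on (3.33%), and 707 a negative one, termed lower (3.38%). Genes with several probe sets count more than once here, among them Rpl21 with 43 of its 46 probe sets. With 1 probe set per gene the count was 943 of 16856, 428 of them higher. The shares of all probe sets set beside gene lists below include these repeats. As deposited the same threshold held 1882 of all probe sets, and the directions were uneven, with 562 higher (2.69%) and 1320 lower (6.31%). The plot of p-values shows the low end raised for own diet, with 14.0% of probe sets in the lowest bin, and much less raised for the interaction.

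**Figure D1:**
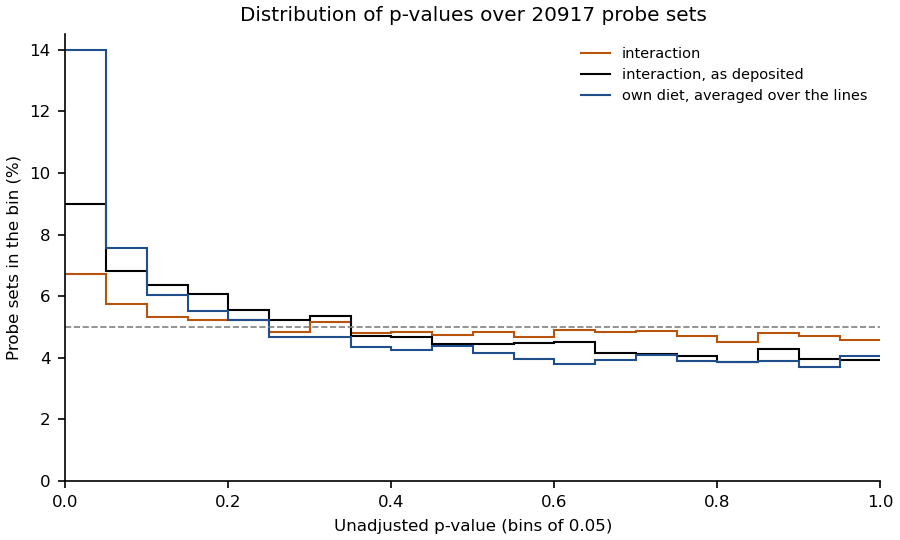
Share of the 20917 probe sets (%) in each bin of unadjusted p-value, for the interaction after quantile normalization, the interaction as deposited, and own diet averaged over the lines; the dashed line marks 5%. The lowest bin held 6.71% of probe sets for the interaction and 14.0% for own diet.

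The precision sets what these counts can say. The median standard error of an interaction was 0.128 log2 units. The median 95% interval, for 1 probe set and unadjusted, reached 0.263 to either side. Differences in response smaller than that were mostly not detectable with these numbers of animals. A call after adjustment over 20917 probe sets mostly needed a larger difference. Arpc1b, at 0.60 with a standard error of 0.11, was not called. The middle 50% of all interactions lay between -0.10 and 0.09, and the median was -0.01.

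Array brightness and 4 arrays bear on every value that follows. The middle value of the array medians was 106 in GpatHF-HF, against 120, 117 and 112 in GpatCD-CD, GpatCD-HF and GpatHF-CD, and the ranges overlapped, with the dimmest array (97.9) in GpatCD-HF. As deposited, the median interaction was 0.05 in the dimmest quartile of probe sets and -0.18 in the brightest, while after quantile normalization it was -0.01 in each quartile. Arrays 21 and 25 (GpatCD-CD), 22 (GpatCD-HF) and 24 (GpatHF-HF) stood apart from the other 20 on the first principal component, which held 14.6% of the variance, and no GpatHF-CD array was among them. With these 4 arrays as a block, 0 probe sets were called for the interaction and 1544 had an unadjusted p under 0.05, and without them the counts were 0 and 1451. Values below are after quantile normalization unless they are said to be as deposited.

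Probe sets called for own diet in either line mostly had the same sign in the other, and the lines have no array in common. Both tests took the spread of a probe set from the same fit, so their lists of calls are not fully independent. In the chow line 86 probe sets were called (0.411%) and in the HFD line 83 (0.397%), and 36 were called in both, which is 41.9% of the first list and 43.4% of the second. All 36 moved in the same direction. Of the 86 chow-line calls, 85 had the same sign in the HFD line and 64 of these also had an unadjusted p under 0.05 there. Of the 83 HFD-line calls, 75 had the same sign in the chow line, 64 of them at an unadjusted p under 0.05. Over all probe sets 56.8% had the same sign in both lines. Across probe sets, which share arrays and are not independent replicates, the own-diet differences of the lines correlated at Pearson r = 0.32.

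Among the 363 probe sets called for own diet averaged over the lines, 23 had an interaction at an unadjusted p under 0.05. That is 6.34%, close to the 6.71% of all probe sets. All 363 had the same sign in both lines, which a call on the average of the lines favours, so this count is a description. Their median absolute own-diet difference was 0.36 log2 units and their median absolute interaction 0.12, against 0.10 over all probe sets.

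**Figure D2:**
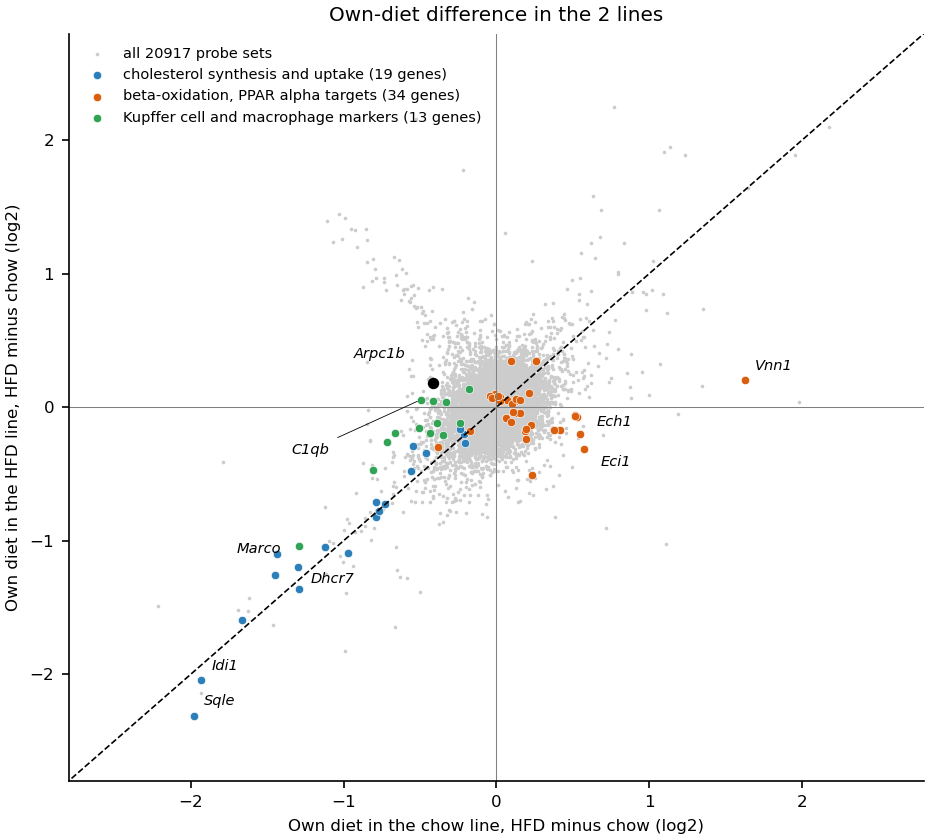
Own-diet difference (HFD minus chow, log2) of each probe set in the chow line (x axis) against the HFD line (y axis); points on the dashed line have no interaction. The 19 cholesterol genes lie along the dashed line down to about -2 in both lines, Vnn1, Ech1 and Eci1 lie below it, the 13 macrophage markers lie above it, and Arpc1b lies in the quadrant of opposite signs.

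Genes of cholesterol synthesis fell on the HFD in both lines. Of the 19 genes of cholesterol synthesis and uptake on single-gene probe sets, 14 passed the test in the chow line (0.411% of all probe sets did), 12 in the HFD line (0.397%) and 18 when the lines were averaged (1.74%), each of them lower on the HFD. The own-diet difference was below 0 for all 19 in each line. Their median own-diet difference was -0.79 in the chow line and -0.82 in the HFD line. None had an interaction at an unadjusted p under 0.05. The median interaction was 0.07 (12 of 19 above 0), -0.12 as deposited (3 of 19 above 0) and -0.03 without array 33, so its sign depended on the setting. The members with the smallest p were Insig1, which retains the SREBP machinery (0.26, interval -0.17 to 0.68), Hsd17b7 of the demethylation steps (0.34, interval -0.27 to 0.95), Sc5d (0.08, -0.13 to 0.28) and Srebf2, which encodes SREBP-2 itself (0.12, -0.23 to 0.47).

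Dhcr7, which catalyses the last step of cholesterol synthesis, had the smallest p for own diet averaged over the lines and was chosen for that, so its values in both lines are a description. Its log2 signal ran from 10.68 to 11.26 in GpatCD-CD (median 11.07) and from 9.56 to 9.91 in GpatCD-HF (median 9.71). It ran from 10.87 to 11.26 in GpatHF-CD (median 11.12), and the GpatHF-HF arrays 24, 44, 45, 46 and 47 read 9.58, 10.10, 10.18, 9.95 and 9.71. Every array on the HFD lay below every array on chow, in each line and across them. Dhcr7 fell by 1.30 ± 0.10 (SE) in the chow line and by 1.19 ± 0.11 in the HFD line, and the interaction was 0.10 with a 95% interval of -0.20 to 0.40. As deposited it was -0.07.

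The other 9 of the 10 genes with the smallest p for own diet had interactions whose 95% intervals all included 0. The intervals were narrow for some of them. Setbp1, the one gene of the 10 that rose, was higher on the HFD by 0.48 in the chow line and 0.62 in the HFD line, an interaction of 0.14 with an interval of -0.09 to 0.37. Stard4, a cytosolic sterol carrier, fell by 0.77 in both lines, with an interval of -0.33 to 0.33. Fdft1, which encodes squalene synthase, had an interval of -0.24 to 0.40 and Cyp51, the lanosterol demethylase, one of -0.38 to 0.53. For these genes a difference in response of 1 log2 unit lies outside the interval, as it does for Idi1, Acat2 and Mab21l3 below. That is larger than the whole own-diet difference of Setbp1 or Stard4, so these intervals do not establish equal responses.

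For genes that vary more between animals the data leave more room. Idi1, the isopentenyl diphosphate isomerase, had an interval of -0.99 to 0.77 and Sqle, the squalene epoxidase, one of -1.32 to 0.66. Acat2, which joins acetyl-CoA units, had one of -0.63 to 0.76 and Mab21l3 one of -0.65 to 0.84. Aacs, which activates acetoacetate for lipid synthesis, fell by 2.21 ± 0.28 in the chow line and by 1.49 ± 0.31 in the HFD line. Its interaction of 0.73 (interval -0.13 to 1.58, adjusted p = 0.794) was the largest of the 10. It was 0.87 without arrays 21, 22, 24 and 25 and ranged from 0.47 without array 45 to 0.94 without array 47. The 5 GpatHF-HF arrays read 7.19, 7.18, 7.97, 6.31 and 6.12 for Aacs, a wider spread than the 5.88 to 6.92 of GpatCD-HF, and the ranges overlapped.

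The 10 genes with the smallest p in each direction were chosen for their interaction, so their values describe it and do not test it further. All 20 had opposite signs in the lines, as a choice on the difference between the lines favours. Among the 10 higher ones, GpatHF-CD had the lowest mean in 9 and GpatCD-HF in 1. Among the 10 lower ones, GpatHF-CD had the highest mean in 6 and GpatCD-HF in 4. Among the probe sets chosen by an unadjusted p under 0.05, 625 of the 696 higher and 648 of the 707 lower ones had opposite signs, against 43.2% of all probe sets, and that choice favours opposite signs too. No direction among the 20 reversed under any alternative setting. All 20 stayed at an unadjusted p under 0.05 with the 4 arrays as a block, without them, and with any 1 array left out, while as deposited 7 of the 10 higher and all 10 lower ones did.

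Arpc1b, a subunit of the Arp2/3 complex that nucleates branched actin filaments, had the smallest p. Its log2 signal ran from 10.11 to 10.47 in GpatCD-CD (median 10.31) and from 9.75 to 10.17 in GpatCD-HF (median 9.84). In GpatHF-CD it was confined to 9.86 to 9.98 (median 9.89), and the 5 GpatHF-HF arrays read 10.26, 9.90, 10.05, 9.97 and 10.20. GpatCD-CD stood above GpatHF-CD with no overlap, array 31 was the one GpatCD-HF array inside the GpatCD-CD range, and the HFD-line groups overlapped. Arpc1b fell by 0.42 ± 0.07 in the chow line (adjusted p = 0.00423) and the HFD-line difference was 0.18 ± 0.08 (adjusted p = 0.354). It was the one chow-line call with the opposite sign in the HFD line.

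The interaction of Arpc1b was 0.60 ± 0.11 (95% interval 0.38 to 0.81, adjusted p = 0.146). It was 0.43 as deposited, 0.61 with the 4 arrays as a block and 0.61 without them. Without array 31 it was 0.66 with an adjusted p of 0.00962, the only setting in which any probe set passed. Over all alternatives its adjusted p ranged from 0.00962 to 0.429.

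Among the 10 higher genes, Stx6 and Rab33b act in vesicle trafficking. Stx6, a SNARE protein of the trans-Golgi network, ran from 7.89 to 8.17 in GpatCD-CD, from 7.83 to 7.95 in GpatCD-HF and from 7.71 to 7.90 in GpatHF-CD, and the 5 GpatHF-HF arrays read 8.20, 7.98, 8.03, 7.96 and 8.01. In the HFD line every array on the HFD lay above every array on chow, while in the chow line the diets overlapped. The interaction of Stx6 was 0.42 ± 0.09 (adjusted p = 0.311), and 0.30 as deposited. Rab33b, a Golgi GTPase, was at 0.52 ± 0.15 (adjusted p = 0.527) and 0.37 as deposited.

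Romo1, a small protein of the mitochondrial inner membrane that modulates reactive oxygen species, was at 0.49 ± 0.11 (adjusted p = 0.433) and 0.30 as deposited. Its signal ran from 11.23 to 11.50 in GpatCD-CD, 11.06 to 11.42 in GpatCD-HF and 10.93 to 11.18 in GpatHF-CD, and the GpatHF-HF arrays read 11.62, 11.40, 11.44, 11.18 and 11.41. GpatHF-CD had the lowest mean, and its arrays lay below those of GpatHF-HF, with array 46 close to its highest array. Romo1 rose on the HFD in the HFD line (0.35, adjusted p = 0.0419) and the chow-line difference was -0.14 (adjusted p = 0.515). Ppif, which encodes cyclophilin D of the mitochondrial permeability transition, was at 0.70 ± 0.18 (adjusted p = 0.527), and all 5 GpatHF-HF arrays (10.23, 10.25, 9.93, 9.998 and 10.12) lay above the highest GpatHF-CD array (9.90). Mrpl54 of the mitochondrial ribosome was at 0.46 ± 0.12, and at 0.26 as deposited, where it was one of the 3 higher genes above an unadjusted p of 0.05.

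Crebbp, which encodes a histone acetyltransferase and coactivator, was at 0.39 ± 0.09 (adjusted p = 0.527). Its GpatHF-CD arrays were tightly grouped, from 8.32 to 8.40, and all 5 GpatHF-HF arrays (8.77, 8.46, 8.60, 8.55 and 8.81) lay above them. As deposited Crebbp was at 0.25 and was another of the 3. Polr2m, an RNA polymerase II subunit, was at 0.34 ± 0.10 and, as the last of the 3, at 0.18 as deposited. Lbh was at 0.50 ± 0.12, and Rnf135, a ubiquitin ligase of the antiviral RIG-I pathway, was at 0.85 ± 0.21 (adjusted p = 0.527) and 0.86 as deposited.

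Of the 10 lower genes, 4 passed the own-diet test in the HFD line and none passed it in the chow line. Txndc17, a thioredoxin-like reductase, lay between 9.76 and 9.97 in GpatCD-CD and between 9.81 and 10.04 in GpatCD-HF. It lay between 10.03 and 10.26 in GpatHF-CD, and the GpatHF-HF arrays read 9.82, 9.87, 9.999, 9.74 and 9.64. GpatHF-CD was the high group: it did not overlap GpatHF-HF or GpatCD-CD. Txndc17 fell by 0.33 ± 0.07 in the HFD line (adjusted p = 0.0196), and the interaction was -0.38 ± 0.09 (adjusted p = 0.527), or -0.54 as deposited.

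The other three lower genes that fell in the HFD line were Slc22a21, an organic cation and carnitine transporter, Acyp1, an acylphosphatase, and C19h16orf74. Slc22a21 had GpatHF-CD arrays from 7.49 to 7.97 and GpatHF-HF arrays at 6.41, 7.22, 6.85, 7.15 and 7.24, with no overlap. Its interaction was -0.85 ± 0.22 (adjusted p = 0.527). Acyp1 was at -0.42 ± 0.11 and C19h16orf74 at -0.39 ± 0.11. A call in one line and none in the other is not a difference between lines, and the test of that difference did not pass for any of these genes after adjustment.

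The remaining 6 lower genes passed the own-diet test in neither line. Rps24, a protein of the small ribosomal subunit, was at -0.39 ± 0.10 (adjusted p = 0.527), and Rpl34l1, named as a copy of a ribosomal protein gene and so possibly sharing signal with it, was at -0.45. Gtf2b, the general transcription factor TFIIB, was at -0.55 ± 0.15 and Rpa3, a subunit of the single-strand DNA binding protein RPA, at -0.74 ± 0.19. Ndufb11 of respiratory complex I was at -0.50 ± 0.14 and Fam181b at -0.39 ± 0.10. As deposited each of these was also below 0, from -0.84 for Rpa3 to -0.43 for Rpl34l1. The plot of intervals shows all 20 clear of 0 by selection, beside the 10 own-diet genes whose intervals include it.

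**Figure D3:**
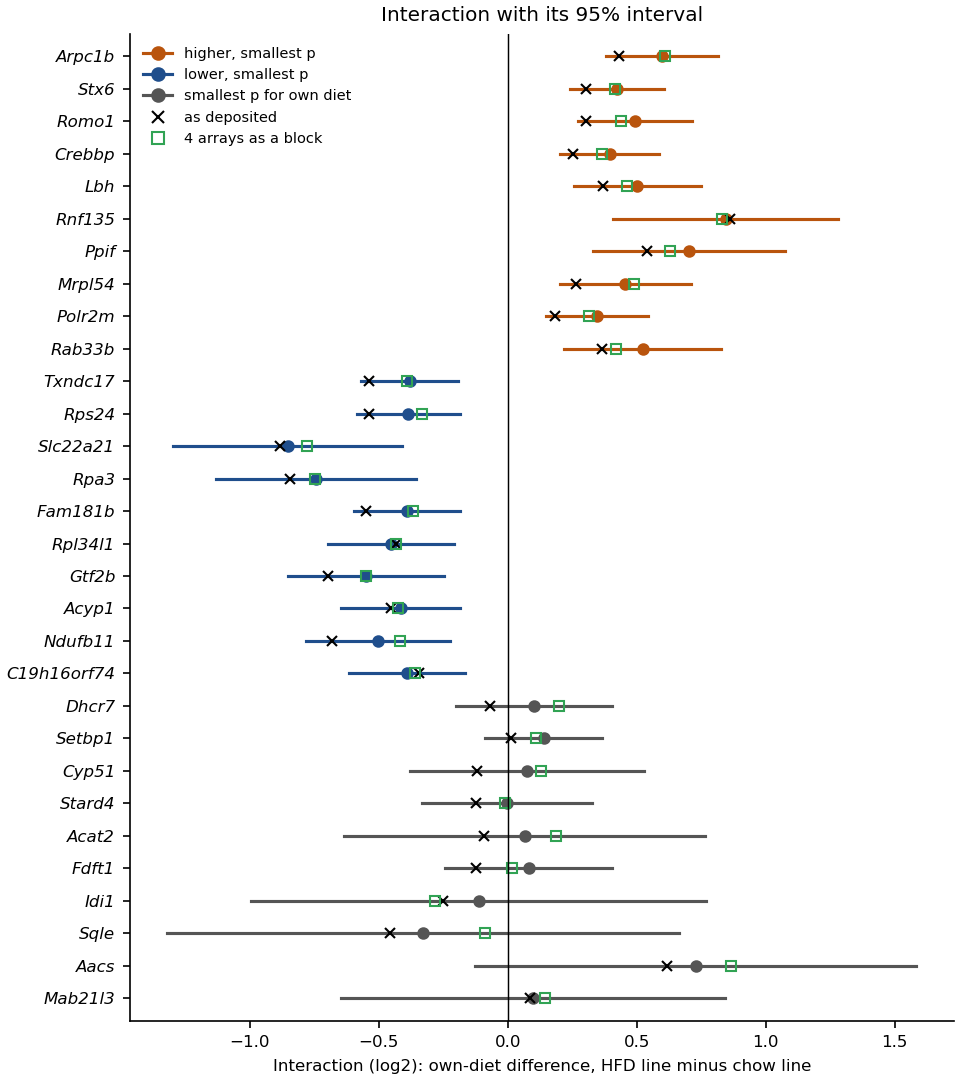
Interaction (log2, x axis) with its 95% interval for the 10 higher and 10 lower genes with the smallest p and for the 10 genes with the smallest p for own diet; crosses are the values as deposited and squares those with arrays 21, 22, 24 and 25 as a block. The first 20 intervals exclude 0 because the genes were chosen by that test; the 10 intervals of the own-diet genes include 0.

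Fatty acid oxidation genes had mostly negative interactions. Of the 19 genes of mitochondrial beta-oxidation and ketogenesis 5 were above 0, and of the 15 PPAR alpha targets and peroxisomal oxidation genes 4 were, beside 47.1% of all probe sets. The medians were -0.11 and -0.20, against -0.01 over all probe sets, and -0.31 and -0.36 as deposited, where the brightest quartile as a whole stood at -0.18. At an unadjusted p under 0.05, 4 of 19 and 3 of 15 were lower and none higher, beside 3.38% of all probe sets lower. No member passed after adjustment over all probe sets. Without arrays 21, 22, 24 and 25 the medians were -0.06 and -0.14, and without array 47 alone the first was also -0.06.

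Vnn1, a pantetheinase gene that PPAR alpha activates, had the largest value of the group. Its log2 signal ran from 6.82 to 8.59 in GpatCD-CD (median 7.77) and from 9.20 to 10.05 in GpatCD-HF (median 9.27). It ran from 7.54 to 8.94 in GpatHF-CD (median 8.65), and the GpatHF-HF arrays read 7.42, 9.30, 9.15, 9.07 and 8.59. The chow-line groups did not overlap, whereas in the HFD line array 24 lay below every chow array and 3 of the 5 HFD arrays above all of them. Vnn1 rose by 1.63 ± 0.30 in the chow line (adjusted p = 0.00855) and the HFD-line difference was 0.20 ± 0.33 (adjusted p = 0.858). The interaction was -1.43 ± 0.44 (95% interval -2.34 to -0.51, adjusted p = 0.527), -1.55 as deposited and -1.32 without the 4 arrays, and it ranged from -1.62 to -1.11 when each array was left out in turn.

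Ech1 and Eci1, isomerases that handle unsaturated fatty acids, had a common pattern in which GpatCD-CD was the low group. Ech1 lay between 10.09 and 10.79 in GpatCD-CD, 10.57 and 11.31 in GpatCD-HF, and 10.50 and 11.42 in GpatHF-CD, and its GpatHF-HF arrays read 10.16, 11.18, 10.94, 10.92 and 10.88. Eci1 lay between 10.13 and 11.09, 10.92 and 11.50, and 10.75 and 11.85 in the same order, and its GpatHF-HF arrays read 10.25, 11.71, 11.14, 10.95 and 10.63. All group pairs overlapped for both genes, and array 24 was the lowest of its group in each. The interaction was -0.75 ± 0.23 for Ech1 (adjusted p = 0.527) and -0.89 ± 0.30 for Eci1 (adjusted p = 0.541). Without arrays 21, 22, 24 and 25 these were -0.54 and -0.68.

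Further oxidation genes had the same sign and smaller values. Decr1, the dienoyl-CoA reductase, was at -0.60 ± 0.21, Slc25a20, the carnitine-acylcarnitine carrier of the inner membrane, at -0.43 ± 0.16 and Hadhb, a subunit of the trifunctional protein, at -0.36 ± 0.16. Acot2, a mitochondrial thioesterase, was at -0.59 ± 0.27 and Crat, the carnitine acetyltransferase, at -0.75 with an interval of -1.50 to 0.00. Cpt1a, the rate-limiting carnitine palmitoyltransferase, had a wide interval of -1.30 to 0.14, and Acadm, the medium-chain acyl-CoA dehydrogenase, a narrow one of -0.21 to 0.17. Ppara itself was at 0.09 (interval -0.27 to 0.45). Cpt1a, Acadm and Ppara are named outside the naming rule, for their roles.

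**Figure D4:**
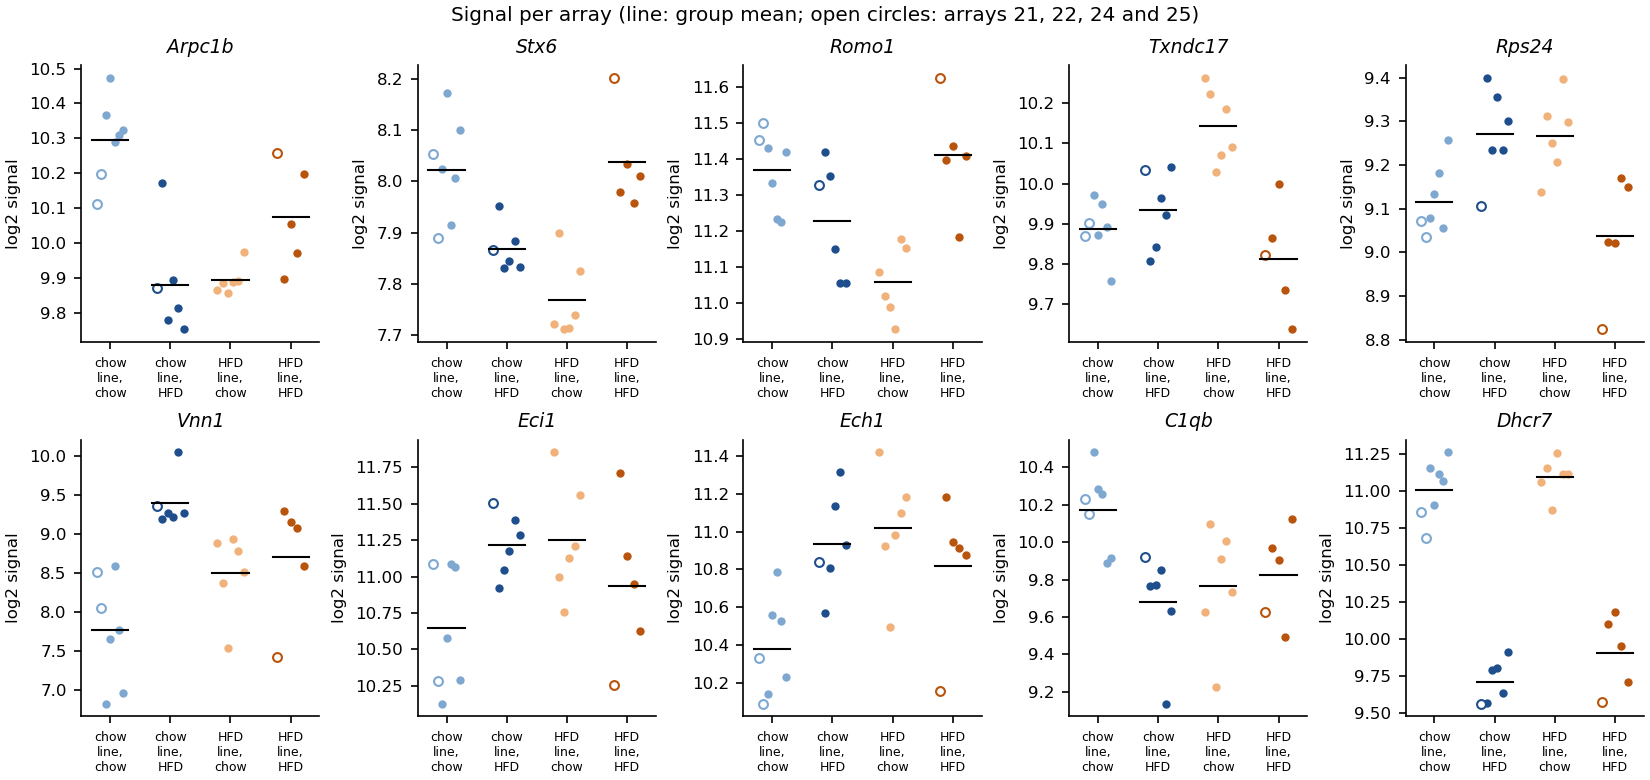
Log2 signal of 10 genes on each of the 24 arrays after quantile normalization, by group, with the group mean as a line and arrays 21, 22, 24 and 25 as open circles. Arpc1b, Stx6, Romo1, Txndc17 and Rps24 have small p for the interaction; Vnn1, Eci1 and Ech1 are lowest in the chow line on chow; C1qb marks macrophages; Dhcr7 falls on the HFD in both lines.

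The promoters of the oxidation and lipid droplet genes lower at an unadjusted p under 0.05 were searched for the nuclear receptor half-site AGGTCA on either strand, the unit that receptors such as PPAR alpha bind in repeats. The 8 genes were Vnn1, Ech1, Acot2, Eci1, Decr1, Slc25a20, Hadhb and Plin5. RefSeq promoters (build GRCr8, 250 bases before to 50 after the gene start) matched 5 of them, and Eci1, Plin5 and Hadhb held the half-site while Slc25a20 and Acot2 did not. It was present in 15.7% of 27457 promoters of the same length. The 2 windows upstream of a gene start are shown because they carry it, 5′ to 3′ along the gene, with the half-site in capitals as it reads on that strand. For Eci1 the window is chr10:13961129-13961188 on the + strand and the site begins at position -94 from the gene start. For Plin5 it is chr9:1033409-1033468 on the - strand and the site begins at position -157.
Eci1: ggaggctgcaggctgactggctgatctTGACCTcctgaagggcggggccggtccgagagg
Plin5: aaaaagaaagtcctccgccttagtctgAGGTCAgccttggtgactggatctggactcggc
A match of this length describes the letters and is no evidence that a factor binds there.

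Of 38 genes of oxidative phosphorylation 9 were above 0, beside 47.1% of all probe sets (median -0.09, -0.26 as deposited and -0.04 without array 47). At an unadjusted p under 0.05, 3 of the 38 were lower, beside 3.38% of all probe sets: Ndufs3 (-0.43), Cox7a2 (-0.39) and Cox5a (-0.31). Ndufs3 ran from 9.54 to 9.85 in GpatCD-CD, 9.63 to 10.03 in GpatCD-HF and 9.90 to 10.04 in GpatHF-CD, and the GpatHF-HF arrays read 9.63, 9.94, 9.97, 9.92 and 9.24. Arrays 24 and 47 were low and the other three within the GpatHF-CD range. Of 27 cytosolic ribosomal protein genes 6 were above 0 (median -0.10, -0.30 as deposited and -0.06 with the 4 arrays as a block) and 5 were lower at that p. Of 19 lipid droplet and fatty acid uptake genes 8 were above 0, close to the share of all probe sets (median -0.10, and -0.03 without array 37). The 1 of them lower at that p was Plin5 (-0.51 ± 0.21, adjusted p = 0.646), which coats droplets at their contact with mitochondria.

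Fatty acid and triglyceride synthesis genes had the opposite sign. Of 17 genes 15 were above 0, with a median of 0.25, or 0.08 as deposited (10 of 17). Dgat2, which catalyses the final step of triglyceride synthesis, was the single member at an unadjusted p under 0.05 (1 of 17, beside 3.33% of all probe sets higher). It ran from 12.22 to 12.47 in GpatCD-CD, 12.40 to 12.68 in GpatCD-HF and 12.21 to 12.37 in GpatHF-CD, and the GpatHF-HF arrays read 12.55, 12.44, 12.62, 12.64 and 12.53. The HFD-line groups did not overlap, and the chow-line groups did. Dgat2 rose in the HFD line (0.28, adjusted p = 0.0177), and the chow-line difference was 0.12 (adjusted p = 0.433). The interaction was 0.16 ± 0.07 (adjusted p = 0.703), and -0.01 as deposited.

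Larger estimates in this pathway came with wide intervals. The largest was that of Pnpla3, a lipase of the lipid droplet named here for its size, at 1.48 (interval -0.53 to 3.48), and at 0.89 without array 42. Elovl6, which elongates palmitate, was at 0.79 (interval -0.17 to 1.75), Acly, the ATP citrate lyase, at 0.53 (-0.17 to 1.22) and Acss2, the acetyl-CoA synthetase of the cytosol, at 0.37 (-0.11 to 0.86). Acss2 fell in the chow line (-1.12, adjusted p = 0.000472) and its HFD-line difference was -0.75 (adjusted p = 0.0512).

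Macrophage markers had the highest median of the 38 lists. All 13 Kupffer cell and macrophage markers on single-gene probe sets were above 0, with a median interaction of 0.33, or 0.19 as deposited (11 of 13), and 3 of 13 were higher at an unadjusted p under 0.05, beside 3.33% of all probe sets. The median own-diet difference was -0.43 in the chow line and -0.16 in the HFD line. Marco, a scavenger receptor named outside the rule because it was called in both lines, fell by 1.29 and by 1.04. The mean centred log2 signal of the 13 genes ran from 0.05 to 0.55 in GpatCD-CD and from -0.64 to -0.01 in GpatCD-HF, without overlap, and from -0.31 to 0.40 in GpatHF-CD and -0.34 to 0.19 in GpatHF-HF, with overlap. In whole liver, fewer macrophages and less RNA per macrophage cannot be told apart.

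C1qb, a chain of complement C1q made by macrophages, ran from 9.89 to 10.48 in GpatCD-CD, 9.14 to 9.92 in GpatCD-HF and 9.22 to 10.10 in GpatHF-CD, and the GpatHF-HF arrays read 9.63, 9.97, 9.91, 9.50 and 10.13. GpatCD-CD was the high group and overlapped the others. The interaction of C1qb was 0.55 ± 0.21 (adjusted p = 0.584). Mrc1, the mannose receptor, was at 0.31 (interval 0.07 to 0.55), Cd68, a lysosomal glycoprotein, at 0.46 (0.00 to 0.92) and Clec4f, a Kupffer cell lectin, at 0.48 (-0.03 to 0.98). As deposited none of the 13 was at an unadjusted p under 0.05. Arpc1b is highly expressed in blood-derived cells, and whether its values follow the macrophage share was not tested.

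Markers of other cells had medians closer to 0, with exceptions under some settings. All 11 stellate and fibrosis markers were above 0 (median 0.14, 0.27 without array 31, and 8 of 11 above 0 as deposited) and none had an unadjusted p under 0.05. Among 7 endothelial markers the median was 0.05 (-0.09 as deposited and 0.16 without array 30). At an unadjusted p under 0.05, 2 of the 7 were higher, beside 3.33% of all probe sets. These were Cdh5 (0.52, adjusted p = 0.548) and Lyve1 (0.45, adjusted p = 0.637), while Clec4g of the sinusoid was at -0.33. Among 12 lymphocyte markers the median was 0.10, and 0.45 without the dimmest 50% of probe sets, which leaves 2 of the 12. The median was -0.05 among 8 neutrophil markers, -0.06 among 8 bile duct markers and 0.00 among 11 hepatocyte markers (-0.19 as deposited). Adipocyte (10 genes), pancreatic acinar (10), skeletal muscle (6) and erythroid (6) markers had medians of -0.01, 0.04, 0.03 and -0.11. Of these lists, 1 of 8 neutrophil and 1 of 8 bile duct markers were lower at an unadjusted p under 0.05, beside 3.38% of all probe sets. Of the 10 adipocyte markers 1 was higher at that p, Car3 (1.19, adjusted p = 0.627), beside 3.33% of all probe sets.

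Of 18 xenobiotic metabolism genes 4 were above 0, beside 47.1% of all probe sets (median -0.09, -0.28 as deposited and -0.04 without array 45). At an unadjusted p under 0.05, 3 of the 18 were lower, beside 3.38% of all probe sets. These were Nr1i3, the receptor CAR (-0.71 ± 0.26), Cyp3a23-3a1, a cytochrome that such receptors induce (-1.24 ± 0.49), and Cyp2e1 (-0.14 ± 0.06). Of 14 bile acid genes Abcb4, the phospholipid exporter, was at -0.42 ± 0.18 and the list's median at -0.11. Igfbp3, which carries IGF in blood, fell in the chow line (-0.52, adjusted p = 0.0203), had an HFD-line difference of -0.01 and an interaction of 0.51 ± 0.16 (adjusted p = 0.527), while the 13 growth hormone and IGF genes had a median of 0.04.

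Ccnd1, which encodes cyclin D1, rose in the chow line (0.88, adjusted p = 0.0381), and its HFD-line difference was 0.07, an interaction of -0.82 ± 0.29 (adjusted p = 0.564) that was -0.55 without arrays 21, 22, 24 and 25. The 22 cell cycle genes had a median of -0.07. Gadd45b, a stress-induced gene, was at -1.20 ± 0.41 (adjusted p = 0.541) among 14 immediate early genes with a median of 0.03. Rtp4 was at -0.78 and Gbp2 at 0.40 among 21 interferon response genes with a median of -0.06. Otc, the urea cycle carbamoyltransferase, was at 0.26 ± 0.10, and at 0.04 as deposited, among 15 urea cycle and amino acid genes with a median of 0.07. None of these passed after adjustment.

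The remaining pathways had medians between -0.11 and 0.12, and some of them were one-sided in sign. Of 15 methyl donor and one-carbon genes 13 were above 0 (median 0.07, and -0.10 as deposited, where 3 were). Of 10 imprinted growth genes 2 were above 0 (median -0.08), and of 9 sex-biased liver genes 1 was (median -0.11, and -0.28 as deposited). The 14 clock genes had a median of 0.09 (8 above 0), which was 0.23 without arrays 21, 22, 24 and 25 and -0.08 as deposited, and the 12 glucocorticoid genes one of 0.12 (9 above 0), which was -0.04 as deposited. The median was -0.01 for 16 DNA methylation and histone modification genes (6 above 0), -0.00 for 16 genes of glucose metabolism and insulin signalling (8) and -0.04 for 13 lipoprotein genes (5). The 15 acute phase genes were at 0.00 (8 above 0), 16 antigen processing genes at -0.01 (8), 15 NRF2 genes at -0.02 (6), 16 endoplasmic reticulum stress genes at -0.02 (7) and 11 heat shock genes at -0.07 (4). None of these lists had more than 1 member at an unadjusted p under 0.05 after quantile normalization. As deposited, 5 of the 9 sex-biased and 5 of the 15 acute phase genes were lower at that p. So were 3 of the 13 lipoprotein and 2 of the 16 glucose genes, beside 6.31% of all probe sets, and none of these 4 lists had a higher one. Across the 38 lists 16 medians were above 0 after quantile normalization and 6 as deposited, 10 lists changed sign between these settings, and 8 changed sign without arrays 21, 22, 24 and 25. No list member passed the interaction test over all probe sets.

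**Figure D5:**
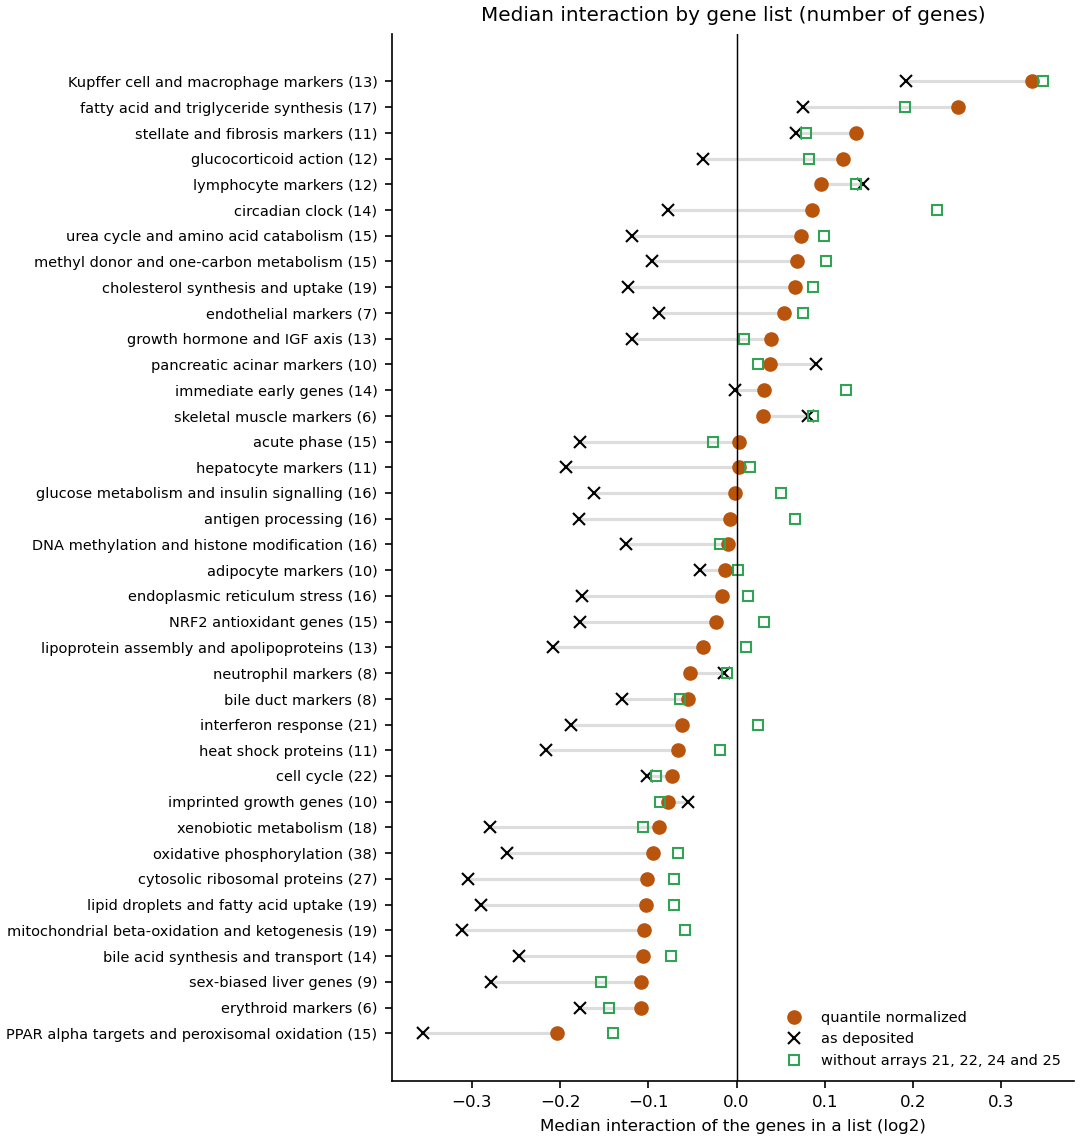
Median interaction (log2, x axis) of the genes in each of 38 lists, after quantile normalization (filled), as deposited (crosses) and without arrays 21, 22, 24 and 25 (squares). Medians run from -0.20 (PPAR alpha targets and peroxisomal oxidation) to 0.33 (Kupffer cell and macrophage markers) after quantile normalization, and most crosses lie to the left of the filled points.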

How the data were processed

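Total RNA (200 ng per liver) was amplified to sense-strand cDNA and biotin-labelled for a whole-transcript Affymetrix array, per the labels' protocols. Each deposited value is the authors' linear intensity of 1 probe set on 1 array. The submitters' processing notes name Expression Console and PLIER, with background and normalization settings not given in the sources used here. Each deposited intensity was converted to log2(value + 16) and quantile normalized, so differences of dim probe sets are understated. All 24 arrays entered 1 fit of 4 group means (limma 3.58.1, R 4.3.3, eBayes with an intensity trend). P-values are two-sided and adjusted by Benjamini-Hochberg over 20917 probe sets, with a threshold of 0.05. The number of arrays limits the precision. The fit was tested on simulated data.

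Of the probe sets, 18197 had 1 gene symbol from the platform annotation (18052 matched in a RefSeq table), 960 several and 1760 none here. Genes in 38 lists were represented by their brightest probe set. The lists and most choices were made with earlier results of these data known. Named genes, with a symbol not starting with LOC, RGD or AABR and a mean at or above the lower quartile (5.72), were up to 10 per direction for the interaction, 1 probe set each, called ones first and then by p, the 10 with the smallest p for own diet, and up to 4 per list by p. Alternatives were no normalization, median centring, leaving out the dimmest 25% or 50%, offsets of 1 and 50, other eBayes settings, array weights, 1 probe set per gene, the 4 arrays as a block or left out, and each array left out in turn.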

Additional observations from a re-analysis of the deposited data

Results flagged for a closer look

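In 9 of 80 groups of the 20 genes named for the interaction, 1 array lay far from the rest of its group by Dixon's ratio of gap to range, and about 1 in 20 groups is marked so by chance. For Arpc1b these were array 31 of GpatCD-HF, the highest at 10.17 against 9.89 for the next (ratio 0.663), and array 42 of GpatHF-CD, the highest (ratio 0.708); the interaction of 0.60 was 0.66 without the first and 0.61 without the second. For Crebbp they were array 30 of GpatCD-CD (ratio 0.715) and array 33 of GpatCD-HF (ratio 0.679), each the lowest, with an interaction of 0.43 and 0.36 without them. Array 44 was the lowest of GpatHF-HF for Rnf135 (ratio 0.727), and the interaction was 0.97 without it. Array 40 was the lowest of GpatHF-CD for Mrpl54 (ratio 0.668, 0.42 without it). Array 35 was the highest of GpatCD-HF for Rpa3 (ratio 0.722, -0.71 without it). Array 47 was the lowest of GpatHF-HF for Fam181b (ratio 0.851, -0.35 without it), and array 22 the lowest of GpatCD-HF for Ndufb11 (ratio 0.629, -0.57 without it). No direction changed in these 9 cases.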

How the results depend on the processing

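The count of interactions called stayed at 0 under the 13 alternatives other than leaving out 1 array, and with each array left out in turn it was 0 to 1. The one call was Arpc1b without array 31. The count at an unadjusted p under 0.05 (1403) was 686 when the dimmest 50% of probe sets were left out, which tests fewer probe sets, and 1202 to 1875 with single arrays left out. Own-diet calls (363) were 569 with the 4 arrays as a block, where the cause was not tested, and 264 to 389 with single arrays left out. As deposited there were 263 own-diet calls, 51 of which rose, against 140 of 363 after quantile normalization. None of the 20 genes named for the interaction changed direction in any setting, which their choice by its p-value favours. Of the 10 own-diet genes, whose intervals include 0, 8 changed sign in at least 1 setting, 4 of them as deposited. Of the 150 genes ranked highest within the lists, 21 changed sign as deposited and 25 over the settings run for them (as deposited, the 4 arrays as a block or left out, and single arrays left out). Of the 38 list medians, 25 changed sign in at least 1 setting. They moved beyond the spread of arrays in 56 of 493 pairs of list and setting, left-out arrays aside. No paired analysis was possible because no replicate number occurs in more than 1 group.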

Other observations

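Of 71 probe sets at 1 log2 unit or more, 64 were higher and 7 lower, and 34 of the higher ones had no gene name here. Symbols carried by several probe sets supplied much of the remainder, namely 4930488N24Rikl (5 probe sets, median 2.29), Smokxl2 (9 probe sets, median 1.46) and Dlg5l17 (6 of its 7 probe sets, median of the 7 1.20). Whether probe sets with one symbol share probes was not tested, so they are not counted as separate measurements. For all 3 symbols the arrays with the highest signal as deposited were, in order, array 45 (GpatHF-HF), arrays 26 and 27 (GpatCD-CD) and array 24 (GpatHF-HF). For 4930488N24Rikl they read 9.56, 9.05, 8.40 and 7.78, while the group medians lay between 5.97 and 6.74. These are the 2 highest arrays of each of the 2 groups, and array 24 is also one of the 4 that stood apart. The interaction without these highest arrays was not fitted. No probe set of these symbols passed after adjustment (lowest adjusted p 0.527).

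Among single genes outside the 38 lists, chosen here for size, Scd2, a stearoyl-CoA desaturase, was at 2.68 (adjusted p = 0.527), Nptx2 at 2.19 (adjusted p = 0.673) and Stac3 at 1.996 (adjusted p = 0.720). On the other side Ubd, an interferon-induced ubiquitin-like modifier, was at -1.94 (adjusted p = 0.869) and Akr1c2 at -2.14 (adjusted p = 0.906).

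The 46 probe sets named Rpl21, a ribosomal protein gene, show what the normalization moves. Their interactions ran from -0.31 to -0.16 after quantile normalization (median -0.25) and from -0.51 to -0.37 as deposited (median -0.45). They filled 12 of the 100 smallest p-values in the first case and 46 in the second.

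Cpa1, a pancreatic acinar gene, ranged from 7.21 to 13.22 in log2 signal over the 24 arrays, while Pnlip, of the same cells, stayed between 5.21 and 5.72. The lowest Cpa1 value was in GpatHF-HF and the highest in GpatCD-CD. The interaction of Cpa1 was -0.84, and none of the 10 pancreatic acinar markers, Cpa1 among them, had an unadjusted p under 0.05. Of the HFD-line calls with the opposite sign in the chow line, Ctxn2, a dim probe set below the quartile used for naming, had the smallest p (-0.50, adjusted p = 0.182, and -0.44 as deposited).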
